A study of Mus musculus with 6 samples.

Results

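The genes described here are the matrix metalloproteinases (Mmp), the ADAMTS proteases (Adamts) and the tissue inhibitors of metalloproteinases (Timp). They were taken by symbol, as every gene named Mmp or Adamts followed by a number and Timp1 to Timp4, which gave 46 of the 37620 genes counted: 23 Mmp, 19 Adamts and 4 Timp. RNA-seq counts came from 6 mouse libraries, 2 per group. The Phc1-KO cells (genotype Phc1-/-) and the neural progenitor cells (NPC, wild type) were both derived from J1 embryonic stem cells, and the third group was wild-type J1 embryonic stem cells (ESC). Stem cells grew with LIF and serum on mitomycin-C-treated mouse embryonic fibroblasts, which were removed before use, and NPC were differentiated and kept in culture. How many clones the knock-out holds, which part of Phc1 was deleted and how old the cultures were is not given in the sources used here. The labels call the libraries of a group biological replicates.

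The labels of the Phc1-KO cells conflict, since the title and design call them ESC while NPC is entered as the cell type. The 6 stem cell markers looked at (Pou5f1, Nanog, Zfp42, Esrrb, Dppa5a and Tdgf1) summed to 2021 to 2470 CPM (reads per 1000000 reads in genes, scaled by library) in Phc1-KO libraries, 6.97 to 7.34 CPM in NPC libraries and 2074 to 2089 CPM in ESC libraries. For 4 neural progenitor markers (Nes, Fabp7, Olig2 and Pax6) the sums were 144 to 169.7 CPM in Phc1-KO, 1023 to 2609 CPM in NPC and 162 to 171 CPM in ESC. By these sums the Phc1-KO libraries lay with ESC, but not every marker did. Pax6 had 21.5 and 20.75 CPM in Phc1-KO, 20.98 and 16.95 CPM in NPC, and 4.44 and 4.68 CPM in ESC. It was called higher in Phc1-KO than in ESC (edgeR adjusted p 0.00327), also with the ESC pair as 1 library, and not against NPC (0.490). Nanog was called lower in Phc1-KO than in ESC (0.0246), a call lost with the ESC pair as 1 library. The Phc1-KO libraries were therefore compared with both groups. Phc1 itself, a Polycomb repressive complex 1 subunit, had 326 and 268 CPM in Phc1-KO, 40.8 and 34.6 CPM in NPC and 459.7 and 460.5 CPM in ESC; counts over the whole gene do not check the deletion. Libraries held 15226214 to 21893821 gene counts. With counting noise taken off, the coefficient of variation between libraries was 18.1% in Phc1-KO, 27.5% in NPC and 1.98% in ESC, so calls against ESC were also made with that pair counted as 1 library, and a call that this ended is given as such beside the gene or list.

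MMPs are zinc proteases that are made as inactive precursors and cut collagens, laminins, fibronectin and other matrix and cell surface proteins. ADAMTS proteases are secreted zinc enzymes with thrombospondin repeats that trim procollagens or cut the large proteoglycans of cartilage and brain matrix. The TIMPs bind the active site of MMPs and, to differing degrees, of ADAMTS enzymes. A group of secreted MMP genes lies side by side in the mouse genome, and several of them are textbook targets of the transcription factor AP-1.

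The promoters of the 4 genes that rose in Phc1-KO cells within that gene cluster are shown because their letters share a feature. Other genes of the cluster, which did not rise, hold it as well. They come from the RefSeq promoter table of build GRCm38.p6, on chromosome 9, run 5′ to 3′ on the plus strand from 250 bases before the annotated start to 50 bases after it, and capitals mark a match to the AP-1 motif TGANTCA. Their positions are chr9:7445572-7445871 (Mmp3), chr9:7502092-7502391 (Mmp10), chr9:7463891-7464190 (Mmp1a) and chr9:7272264-7272563 (Mmp13).
Mmp3: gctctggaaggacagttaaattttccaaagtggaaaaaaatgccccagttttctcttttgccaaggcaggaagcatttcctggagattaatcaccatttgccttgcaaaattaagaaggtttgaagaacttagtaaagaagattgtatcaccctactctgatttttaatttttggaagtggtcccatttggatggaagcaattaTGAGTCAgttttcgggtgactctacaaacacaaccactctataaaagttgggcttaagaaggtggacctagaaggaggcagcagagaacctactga
Mmp10: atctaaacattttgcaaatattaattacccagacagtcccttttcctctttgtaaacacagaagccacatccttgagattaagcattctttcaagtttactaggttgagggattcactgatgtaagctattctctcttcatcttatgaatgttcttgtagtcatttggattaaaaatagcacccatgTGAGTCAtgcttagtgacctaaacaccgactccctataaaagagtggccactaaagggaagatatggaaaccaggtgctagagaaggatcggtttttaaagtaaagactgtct
Mmp1a: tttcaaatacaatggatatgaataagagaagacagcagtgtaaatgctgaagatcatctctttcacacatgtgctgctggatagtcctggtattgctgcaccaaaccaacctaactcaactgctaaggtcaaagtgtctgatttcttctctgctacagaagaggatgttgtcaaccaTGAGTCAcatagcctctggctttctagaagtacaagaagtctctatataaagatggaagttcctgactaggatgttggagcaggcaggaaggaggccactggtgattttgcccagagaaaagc
Mmp13: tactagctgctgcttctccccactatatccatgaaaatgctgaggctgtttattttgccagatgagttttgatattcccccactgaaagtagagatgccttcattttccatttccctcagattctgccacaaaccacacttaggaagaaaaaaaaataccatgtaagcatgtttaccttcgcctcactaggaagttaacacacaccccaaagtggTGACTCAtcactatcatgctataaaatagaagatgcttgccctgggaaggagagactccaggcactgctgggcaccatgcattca

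Counted from the annotated start, the first base of the motif lay at -46 in Mmp3, -63 in Mmp10, -73 in Mmp1a and -35 in Mmp13. The letters TATAAA, searched on both strands and not overlapping the AP-1 match, began at -7, -29, -28 and -16 in the same 4 promoters. The table held 35 promoters of 32 of the 46 genes. AP-1 letters were found in 8 of these, those of Mmp1a, Mmp1b, Mmp3, Mmp7, Mmp10, Mmp12, Mmp13 and Mmp20, against 7.81% of the 32851 promoters of that length in the table (2565 promoters). TATAAA was in 11 of the 35 and in 13.6% of all promoters (4473). All 8 genes with the AP-1 letters belong to the chromosome 9 cluster, and they include Mmp7 and Mmp20, which were at or near 0 in every library. Mmp1b and Mmp12 also hold these letters and were not called in Phc1-KO against ESC. Mmp12 was lower there in value (log2 fold change -1.43, edgeR adjusted p 0.0675). The letters therefore did not separate the cluster genes that rose from those that did not. The Mmp3, Mmp10, Mmp1a and Mmp13 promoters held 1, 2, 0 and 1 CpG, and the median over all promoters was 7. Those of the procollagen proteases Adamts2, Adamts3 and Adamts14 held 41, 41 and 44. Other genes that rose in NPC held few, with 7 in Adamts12 and 2 in Timp4, or values in between, such as 18 in Adamts1, so CpG content did not separate the groups of genes. These matches describe letters, and binding of a factor was not measured.

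Of the 46 genes, 40 had enough counts to be tested with edgeR's quasi-likelihood test, and a gene was called higher or lower at a Benjamini-Hochberg adjusted p under 0.05. The matrilysin Mmp7 had no count in any library, where 3 counts would correspond to 0.145 to 0.197 CPM. The other 5 untested genes (Adamts13, Adamts18, Mmp8, Mmp20 and Mmp27) had 2 to 15 counts over all 6 libraries together. In Phc1-KO against ESC, 6 genes were higher (15% of those tested, against 4.91% of all 17489 genes) and 2 were lower (5%, against 5.75% of all genes). Under total-count scaling the split over all genes was 683 higher and 1223 lower, against 858 and 1006 here. With the ESC pair as 1 library these were 3 and 0, with 8 higher and 4 lower at an unadjusted p under 0.05. In NPC against ESC, 23 were higher (57.5%, against 30.4% of all genes) and 6 were lower (15%, against 30.9%), and 20 and 5 with the ESC pair as 1 library. In Phc1-KO against NPC, 8 were higher (20%, against 32.3%) and 24 were lower (60%, against 32.7%). The median log2 fold changes of the tested genes were 0.09, 1.86 and -1.79 in those 3 comparisons, beside medians of 0.00, -0.01 and 0.00 over all genes. The comparisons share libraries, so their values are given side by side and not as separate evidence.

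**Figure D1:**
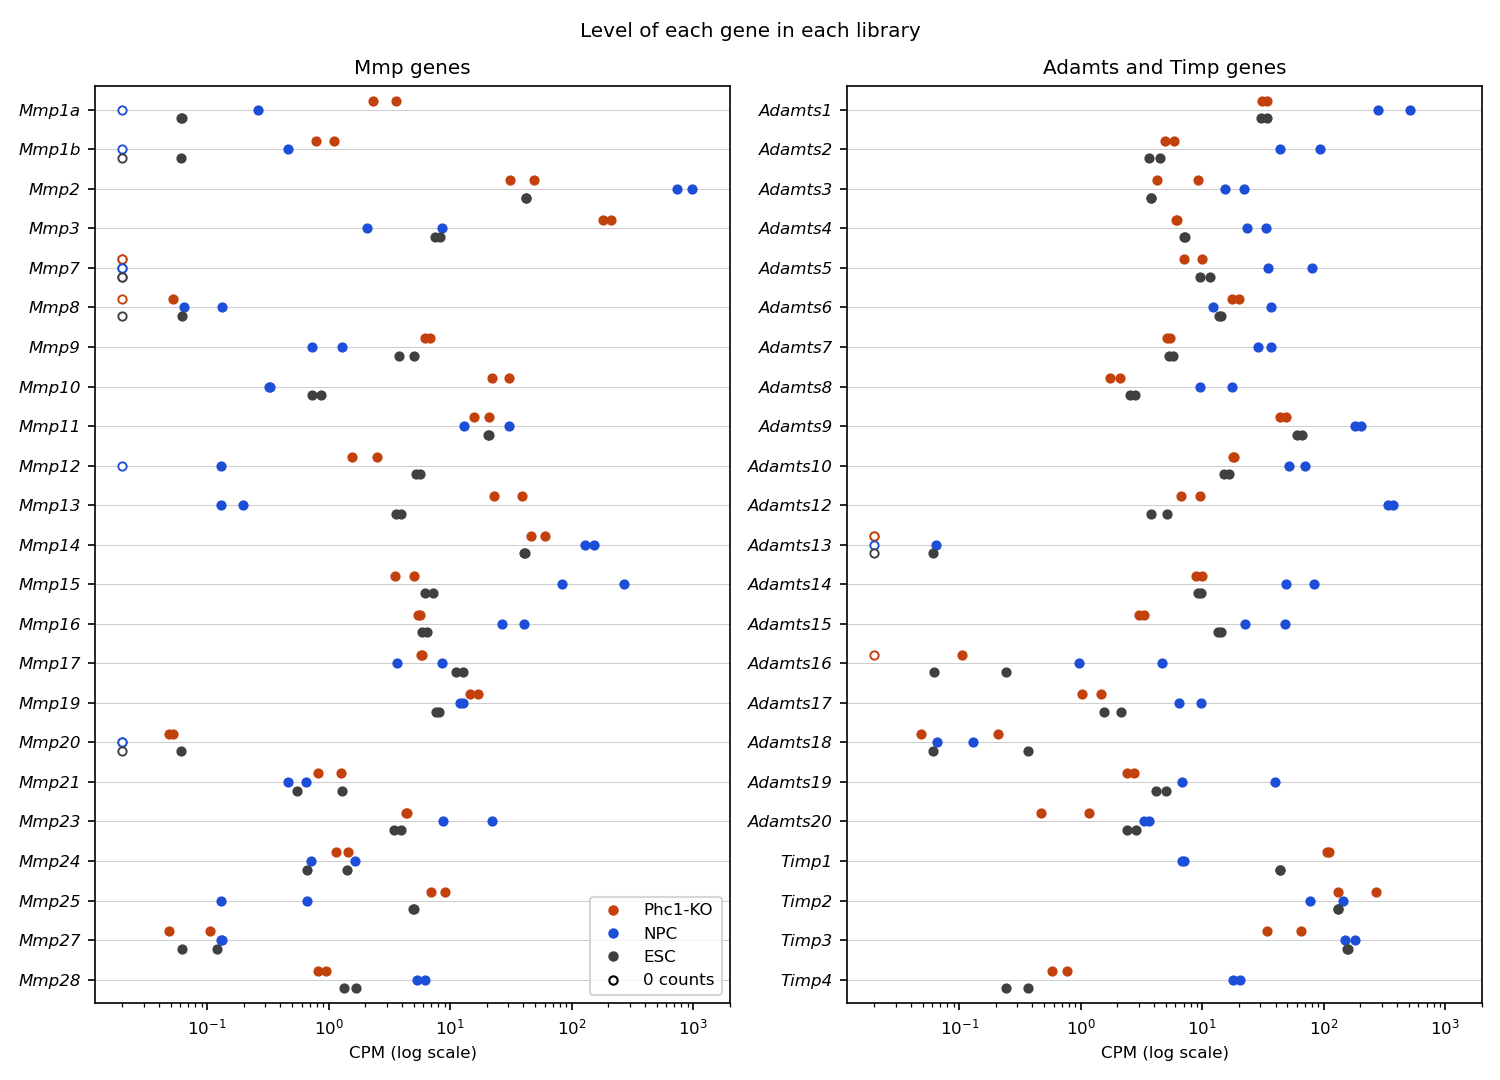
Level of each of the 46 genes in each library, in CPM on a log axis, with 2 points per group; open symbols at the left edge are libraries with 0 counts. Mmp3, Mmp10, Mmp1a and Mmp13 sit highest in the Phc1-KO libraries, and most Adamts genes sit highest in the NPC libraries.

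Of the secreted collagenases and stromelysins, Mmp1a, Mmp3, Mmp10 and Mmp13 rose in Phc1-KO cells against both ESC and NPC. Mmp3 (stromelysin-1, which cuts proteoglycans, laminin and fibronectin and activates other MMPs) had 181 and 212 CPM in Phc1-KO, 8.55 and 2.08 CPM in NPC, and 7.53 and 8.27 CPM in ESC. Both Phc1-KO libraries stood far above the other 4, of which NPC 2 was the lowest. The log2 fold change was 4.63 ± 0.52 (SE) in Phc1-KO against ESC, with an adjusted p of 0.00597, and 5.21 ± 0.54 against NPC, with an adjusted p of 0.000219. Leaving out ESC 2 or Phc1-KO 2 ended the call against ESC (adjusted p of 0.0503 and 0.0721), over a range of 6.1e-08 to 0.0721 in 16 alternative settings of the processing. In NPC against ESC Mmp3 did not pass (log2 fold change -0.57, adjusted p 0.361); it was 0.12 without NPC 2, and -1.92 without NPC 1, where it passed (adjusted p 0.000773), so the NPC libraries decide that value.

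Mmp10, stromelysin-2, had 22 and 30.5 CPM in Phc1-KO, 0.329 and 0.325 CPM in NPC, and 0.864 and 0.730 CPM in ESC. The Phc1-KO libraries did not overlap the others, and the log2 fold change against ESC was 5.03 ± 0.30 (adjusted p 0.00132). Mmp13, collagenase-3, which cuts fibrillar collagens, had 23.1 and 39.0 CPM in Phc1-KO, 0.197 and 0.130 CPM in NPC, and 3.58 and 3.95 CPM in ESC. Its log2 fold change was 3.04 ± 0.31 in Phc1-KO against ESC (adjusted p 0.00478) and -4.47 ± 0.49 in NPC against ESC (adjusted p 0.000302). Mmp13 was above ESC in Phc1-KO and below ESC in NPC. Mmp10 was also lower in NPC than in ESC, by a log2 fold change of -1.27 ± 0.42 (adjusted p 0.0337), a call that held in 9 of 16 alternatives and was lost with the ESC pair as 1 library (adjusted p 0.0739). Mmp10 and Mmp13 were called higher in Phc1-KO than in ESC in 16 of 16 alternatives, including the ESC pair as 1 library.

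Mmp1a and Mmp1b are the mouse genes most like human collagenase-1. Mmp1a had 3.61 and 2.32 CPM in Phc1-KO, 0.263 and 0 CPM in NPC, and 0.0617 and 0.0608 CPM in ESC. With 117 counts in Phc1-KO against 2 in ESC, the ratio of levels was 48.0, with an exact 95% counting interval of 13.0 to 401, and the adjusted p was 0.0118, called in 11 of 16 alternatives. Leaving out any 1 ESC or Phc1-KO library ended the call (adjusted p of 0.0597 to 0.114), as did the ESC pair as 1 library (adjusted p 0.0719). Mmp1b had 0.786 and 1.11 CPM in Phc1-KO, 0.460 and 0 CPM in NPC, and 0 and 0.0608 CPM in ESC. Its ratio to ESC was 31.2 (5.27 to 1264) with an adjusted p of 0.0566, which did not pass. Of the stretches of 50 bases, the read length, in its transcripts, Mmp1b shared 11.6% with Mmp1a, and Mmp3 shared 8.01% of its own with Mmp10. Reads without a unique alignment were tallied apart from the gene counts. Reads from the shared stretches may therefore be missing from the counts of both genes of a pair. The collagenase Mmp8 had 5 counts in all 6 libraries together.

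These genes lie in 1 cluster on chromosome 9, at 7272514 to 7699585 in mm9, the build of the counts, over 427 kb. Its 10 genes run Mmp13, Mmp12, Mmp1b, Mmp3, Mmp1a, Mmp10, Mmp8, Mmp27, Mmp20 and Mmp7. In Phc1-KO against ESC 4 rose (66.7% of those tested, against 4.91% of all genes), 2 did not pass (Mmp1b and Mmp12) and 4 were too low to test. The 5 nearest protein-coding genes on each side held no call in that comparison by edgeR, DESeq2 or limma-voom, with 4 tested and 1 too low on either side. With 4.91% of all genes higher and 5.75% lower, so few genes would often hold no call. Of these flanking genes, 1 was higher at an unadjusted p under 0.05. That gene was Pdgfd, a growth factor gene to the left of the cluster (7.12 and 7.98 CPM in Phc1-KO, 5.06 and 16.8 CPM in NPC, 3.15 and 2.98 CPM in ESC; adjusted p 0.153). Dync2h1 and Dcun1d5, the left neighbours nearest to the cluster, had log2 fold changes of 0.26 each, and Tmem123 and Birc2 on the right -0.04 and -0.16. The log2 fold changes of 3.04 to 5.03 in Mmp13, Mmp3 and Mmp10 stood beside -0.23 to 1.30 in the flanking genes.

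**Figure D2:**
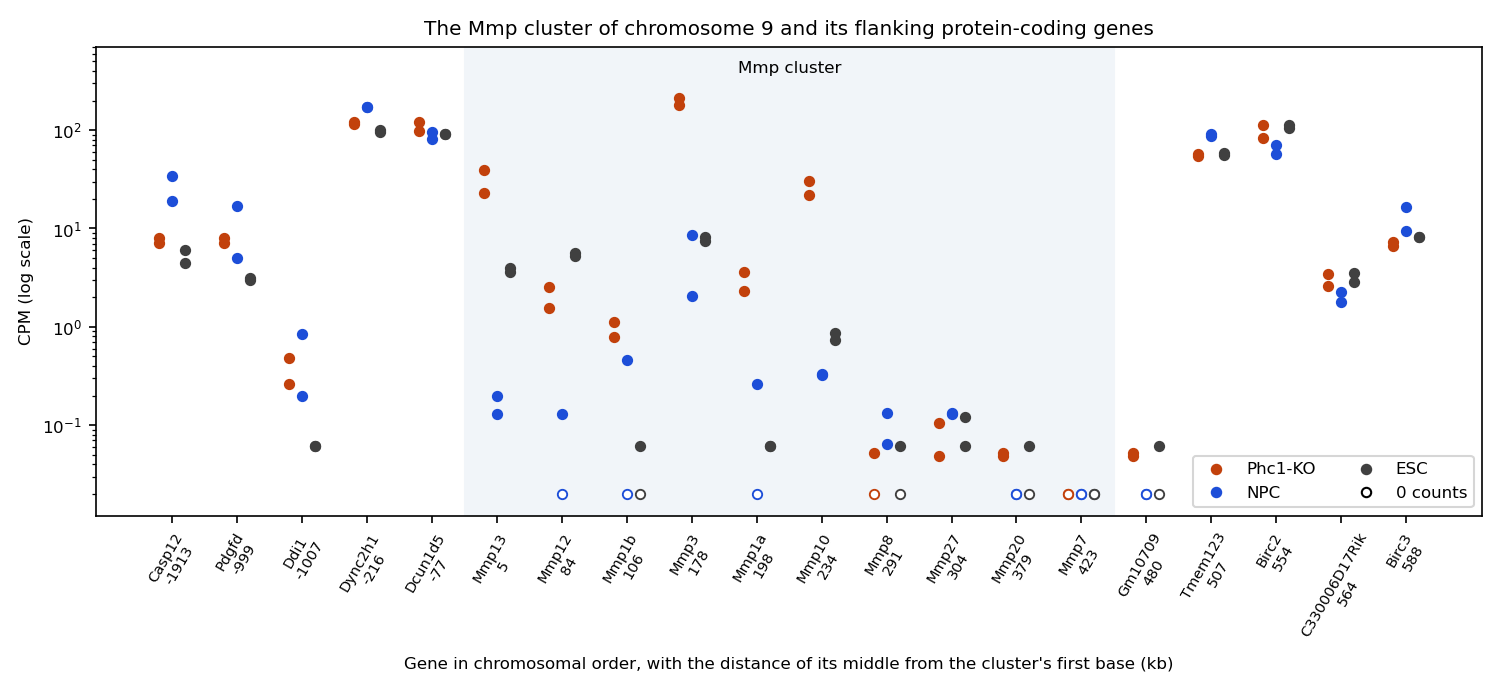
Levels in CPM (log axis) of the chromosome 9 Mmp genes and of 5 protein-coding genes on each side, with 1 symbol per library. Genes stand at even steps in chromosomal order, with the distance in kb printed below each. Phc1-KO points stand above both NPC and ESC points at Mmp13, Mmp3, Mmp1a and Mmp10, and also at Mmp1b, which was not called by edgeR. No flanking gene was called between Phc1-KO and ESC, though Phc1-KO points also stand above ESC points at some of them, such as Pdgfd.

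Mmp12, the macrophage elastase, lies in the same cluster and went the other way in value. It had 2.51 and 1.55 CPM in Phc1-KO, 0 and 0.130 CPM in NPC, and 5.68 and 5.23 CPM in ESC. Both ESC libraries were above both Phc1-KO libraries, but the log2 fold change of -1.43 ± 0.40 missed the threshold (adjusted p 0.0675). In NPC Mmp12 was lower than in ESC, with 2 counts and a ratio of 0.012 (0.00144 to 0.0439; adjusted p 0.000272), and Phc1-KO exceeded NPC by a ratio of 30.8 (8.25 to 259; adjusted p 0.00103). Of 10 macrophage markers (Emr1, Csf1r, Cd68, Ptprc, Tyrobp, Fcer1g, Lyz2, C1qa, C1qb and Itgam), 7 were lower in Phc1-KO than in ESC (4 with the ESC pair as 1 library), against 5.75% of all genes, and all 10 were lower in NPC than in ESC, against 30.9% of all genes. Their sums were 20.6 to 27.7 CPM in Phc1-KO, 5.85 to 7.99 CPM in NPC and 143.7 CPM in both ESC libraries, with Emr1, Tyrobp, C1qa, C1qb and Itgam at 0 in both NPC libraries. Their part in the Mmp12 values was not tested. Mmp12 and Mmp1b overlap on opposite strands by 157 exon bases, and the strand setting of the counting is not known.

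Some markers of feeder fibroblasts were higher in Phc1-KO than in ESC and others were not. Of 10 such markers, Dcn, Lum, Fap and Postn were higher in Phc1-KO than in ESC (40%, against 4.91% of all genes). Col1a1, Col1a2, Col3a1, Col6a3, Thy1 and Pdgfrb did not pass by edgeR, and none of the 10 was at 0 in any group. The ESC pair as 1 library ended the call of Fap. Their sums were 702 to 870.3 CPM in Phc1-KO, 8180 to 12360 CPM in NPC and 426 to 438 CPM in ESC. Postn, a matrix protein of fibroblasts, accounted for 168 and 198 CPM in Phc1-KO, against 4.63 and 4.93 CPM in ESC. The fibrillar collagens Col1a1 and Col3a1 had 121 and 73.7 CPM and 71.9 and 51.8 CPM in Phc1-KO, against 90.1 and 87.4 CPM and 73.4 and 76.3 CPM in ESC, and neither passed (adjusted p 0.844 and 0.443). The sum of these markers was highest in NPC, and whether it came there from feeder cells or from the NPC themselves was not tested. The part of other cells in the Mmp values was not tested, and in these bulk samples a change in the number of cells of a type and in RNA per cell cannot be told apart.

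Of the gelatinases and the membrane-bound MMPs, Mmp2, Mmp14, Mmp15 and Mmp16 rose in NPC against ESC, and Mmp9 and Mmp25 fell. Mmp2, gelatinase A, which cuts type IV collagen and gelatin, had 48.6 and 30.9 CPM in Phc1-KO, 739 and 983 CPM in NPC, and 41.7 and 42.2 CPM in ESC. NPC lay far above both other groups, which overlapped, and the log2 fold change in NPC against ESC was 4.36 ± 0.27 (adjusted p 3.09e-05). Mmp9, gelatinase B, had 6.86 and 6.24 CPM in Phc1-KO, 0.723 and 1.30 CPM in NPC, and 5.06 and 3.77 CPM in ESC. It was lower in NPC than in ESC (-2.12 ± 0.36, adjusted p 0.00206) and did not pass in Phc1-KO against ESC (0.57, adjusted p 0.268). In NPC the gelatinases moved in opposite directions.

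Mmp14 (MT1-MMP), the membrane protease that activates the Mmp2 precursor, had 60.4 and 46.6 CPM in Phc1-KO, 154 and 128 CPM in NPC, and 41.3 and 40.7 CPM in ESC. It rose in NPC against ESC by a log2 fold change of 1.78 ± 0.17 (adjusted p 0.000190), and in Phc1-KO against ESC it did not pass (0.38, adjusted p 0.188). Mmp15 (MT2-MMP) had 5.03 and 3.48 CPM in Phc1-KO, 271.7 and 83.9 CPM in NPC, and 6.17 and 7.24 CPM in ESC. Its NPC libraries differed by more, as a ratio, than those of the other transmembrane MMPs, and both exceeded all ESC and Phc1-KO values (NPC against ESC 4.73 ± 0.57, adjusted p 0.000453). Mmp16 (MT3-MMP) had 5.45 and 5.66 CPM in Phc1-KO, 26.7 and 40.5 CPM in NPC, and 5.86 and 6.45 CPM in ESC, a log2 fold change of 2.45 ± 0.25 in NPC (adjusted p 0.000230). Mmp24 (MT5-MMP) stayed at 0.669 to 1.64 CPM in all 6 libraries and passed in no comparison.

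Neither of the GPI-anchored MMPs was called higher in NPC than in ESC. Mmp25 had 9.01 and 6.97 CPM in Phc1-KO, 0.658 and 0.130 CPM in NPC, and 5.0 and 4.99 CPM in ESC. It fell in NPC against ESC (-3.64 ± 0.53, adjusted p 0.00101), and in Phc1-KO against ESC it did not pass (0.68, adjusted p 0.298). Mmp17 had 5.71 and 5.90 CPM in Phc1-KO, 8.48 and 3.64 CPM in NPC, and 12.8 and 11.1 CPM in ESC. ESC libraries were the highest, but neither comparison with ESC passed by edgeR (adjusted p 0.119 in Phc1-KO and 0.0564 in NPC). In NPC against ESC it passed as lower in 5 of 16 alternatives, DESeq2 (adjusted p 0.0382) and limma-voom (adjusted p 0.0348) among them. Without NPC 1 or NPC 2 in the fit Mmp17 passed as lower in Phc1-KO than in ESC (adjusted p 0.0117 and 0.0111).

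Of the other MMPs, Mmp19 rose in both Phc1-KO and NPC against ESC, and Mmp23 and Mmp28 rose in NPC. Mmp19 had 16.8 and 14.4 CPM in Phc1-KO, 12.8 and 12.1 CPM in NPC, and 7.71 and 8.09 CPM in ESC. It rose in Phc1-KO (0.98 ± 0.19, adjusted p 0.0264, called in 11 of 16 alternatives) and in NPC (0.65 ± 0.20, adjusted p 0.0227, 13 of 16), and the ESC pair as 1 library ended both calls (adjusted p 0.246 and 0.173). Its exons overlap those of 1110012D08Rik on the opposite strand by 789 bases. Mmp23 and Mmp28 (epilysin) rose in NPC against ESC, by 2.05 ± 0.44 (8.68 and 22.1 CPM in NPC, 3.95 and 3.47 CPM in ESC; adjusted p 0.00548) and 1.94 ± 0.29 (5.33 and 6.23 CPM in NPC, 1.67 and 1.34 CPM in ESC; adjusted p 0.00112). In Phc1-KO they had 4.29 and 4.4 CPM and 0.943 and 0.822 CPM, and neither passed against ESC (adjusted p 0.765 and 0.166). The exons of Mmp28 overlap those of 1700020L24Rik on the opposite strand by 465 bases. Mmp11 (stromelysin-3) had 20.7 and 15.7 CPM in Phc1-KO, 12.9 and 30.3 CPM in NPC, and 20.3 and 20.9 CPM in ESC, and Mmp21 stayed at 0.460 to 1.30 CPM. Neither Mmp11 nor Mmp21 passed in any of the 3 comparisons.

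**Figure D3:**
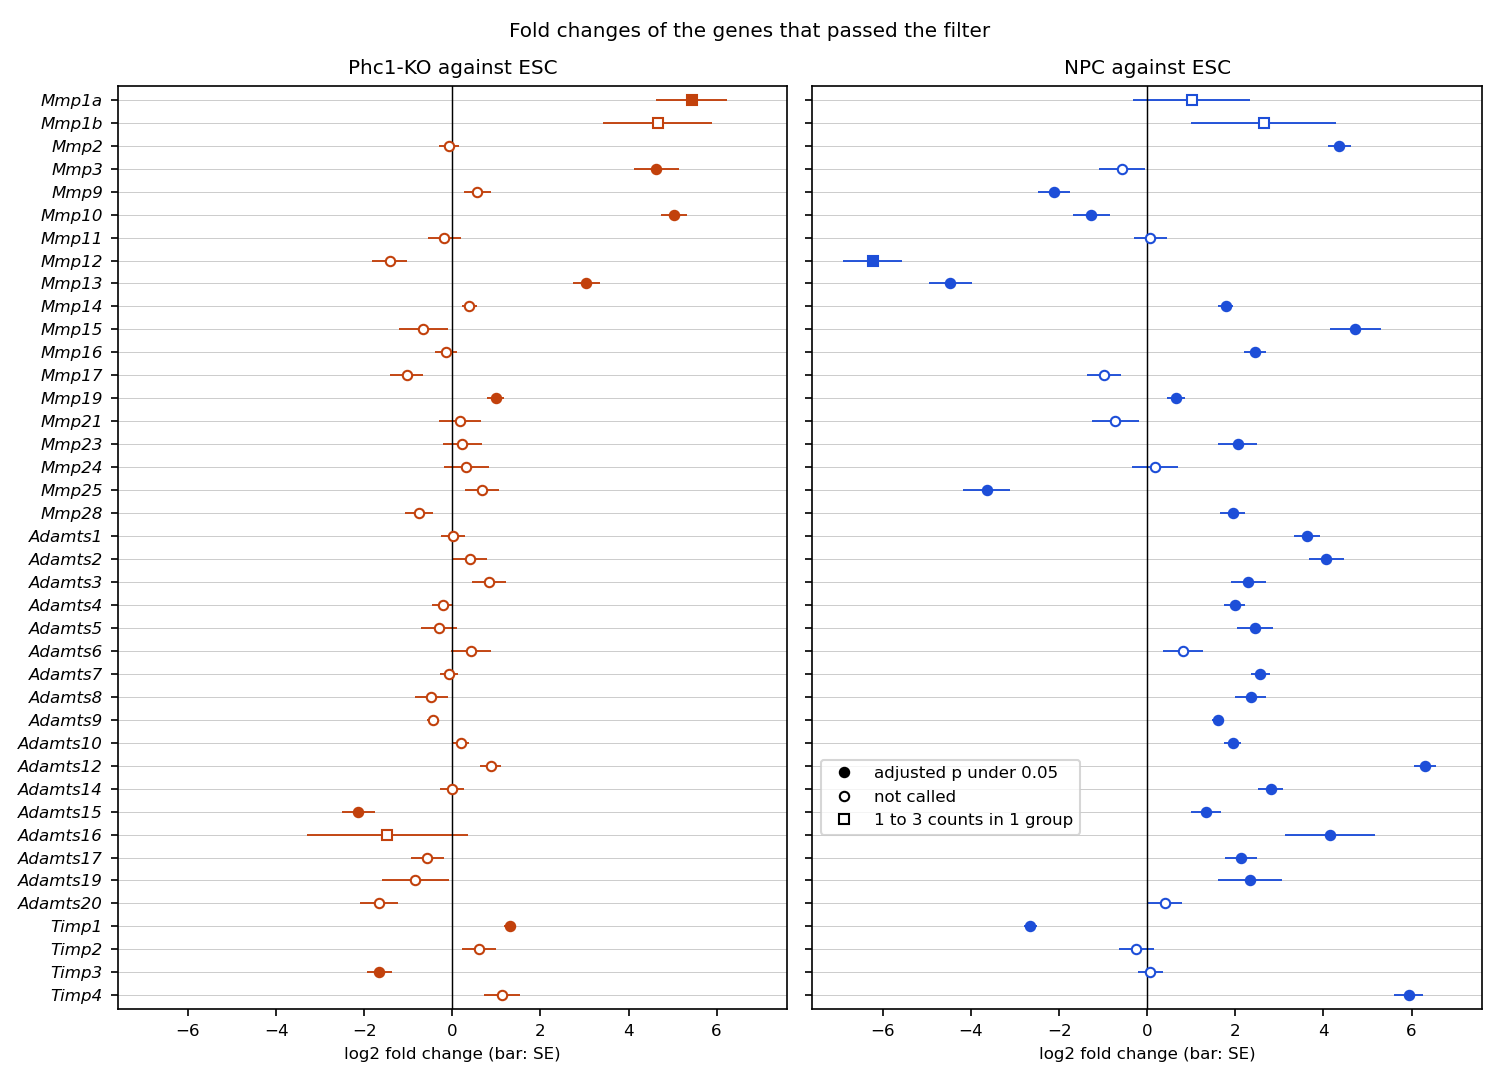
Log2 fold change with its SE of each tested gene in Phc1-KO against ESC (left) and NPC against ESC (right); filled symbols passed an adjusted p of 0.05, and squares mark genes with 1 to 3 counts in a group, whose fitted value depends on the prior count. In Phc1-KO the filled points are Mmp13, Mmp3, Mmp1a and Mmp10 of the chromosome 9 cluster, Mmp19, Timp1, Timp3 and Adamts15, and in NPC they include 15 Adamts genes, all to the right of 0.

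The ADAMTS proteases rose broadly in NPC. Of the 19, 17 were tested and 15 were higher in NPC than in ESC, while none was lower by edgeR, also at an unadjusted p under 0.05 and by DESeq2 or limma-voom. In Phc1-KO against ESC 1 was called, Adamts15, lower; none was higher by edgeR or limma-voom, with 1 higher by DESeq2 and 1 at an unadjusted p under 0.05. Against NPC, 16 of the 17 were lower in Phc1-KO. These counts compare with 30.4% of all genes higher in NPC than in ESC and 32.7% lower in Phc1-KO than in NPC. Fibroblast markers moved the same way in NPC (9 of 10 higher), with sums of 8180 to 12360 CPM in NPC and 426 to 438 CPM in ESC, and their part in the ADAMTS values was not tested.

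Among the ADAMTS proteases that cut proteoglycans such as aggrecan, versican and brevican, Adamts1 had 33.9 and 31.2 CPM in Phc1-KO, 281 and 513 CPM in NPC, and 34.1 and 30.3 CPM in ESC. Phc1-KO and ESC overlapped, and the rise in NPC against ESC was 3.62 ± 0.29 on the log2 scale (adjusted p 8.92e-05). Adamts9 had 49.2 and 43.3 CPM in Phc1-KO, 179.7 and 201 CPM in NPC, and 59.6 and 65.5 CPM in ESC (NPC against ESC 1.61 ± 0.14, adjusted p 0.000120; its exons overlap those of 2 opposite-strand genes by 1805 bases). Adamts5 had 10 and 7.06 CPM in Phc1-KO, 34.7 and 80.4 CPM in NPC, and 9.50 and 11.6 CPM in ESC (2.45 ± 0.41, adjusted p 0.00184). The rise was shared by Adamts4 (1.99 ± 0.23, with 33.7 and 23.3 CPM in NPC and 7.09 and 7.24 CPM in ESC) and Adamts8 (2.35 ± 0.35, with 9.54 and 17.7 CPM in NPC and 2.78 and 2.56 CPM in ESC). In Phc1-KO Adamts4 had 6.23 and 6.10 CPM and Adamts8 had 2.10 and 1.74 CPM.

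Adamts15, another aggrecan-cutting protease, was the ADAMTS gene called between Phc1-KO and ESC. It had 2.99 and 3.34 CPM in Phc1-KO, 22.5 and 48.1 CPM in NPC, and 13.6 and 14.2 CPM in ESC. The groups did not overlap, and it fell in Phc1-KO against ESC by 2.13 ± 0.37 on the log2 scale (adjusted p 0.0186) and rose in NPC by 1.34 ± 0.34 (adjusted p 0.0118). The fall was called in 11 of 16 alternatives and the rise in 13 of 16, and both were lost with the ESC pair as 1 library (adjusted p 0.0817 for the fall and 0.0558 for the rise). Adamts20, which acts on versican in mouse skin, had 0.471 and 1.16 CPM in Phc1-KO, 3.62 and 3.31 CPM in NPC, and 2.41 and 2.86 CPM in ESC. Its difference between Phc1-KO and ESC just missed the threshold (-1.67, adjusted p 0.0519) and passed in 8 of 16 alternatives.

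The procollagen N-propeptidases Adamts2, Adamts3 and Adamts14 all rose in NPC. Adamts2 had 4.92 and 5.81 CPM in Phc1-KO, 43.3 and 92.4 CPM in NPC, and 3.64 and 4.44 CPM in ESC (NPC against ESC 4.07 ± 0.39, adjusted p 0.000180). Adamts14 had 10 and 8.80 CPM in Phc1-KO, 83.2 and 49.0 CPM in NPC, and 9.19 and 9.79 CPM in ESC (2.80 ± 0.28, adjusted p 0.000194). Adamts3 had 9.17 and 4.26 CPM in Phc1-KO, 21.8 and 15.3 CPM in NPC, and 3.76 and 3.77 CPM in ESC (2.30 ± 0.39, adjusted p 0.00213). In Phc1-KO against ESC these 3 had log2 fold changes of 0.41, -0.01 and 0.83 for Adamts2, Adamts14 and Adamts3, and none passed by edgeR.

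Adamts12, which cuts cartilage oligomeric matrix protein, showed the largest fitted log2 fold change of the 40 tested genes in NPC against ESC. It had 9.53 and 6.72 CPM in Phc1-KO, 368 and 335 CPM in NPC, and 5.12 and 3.77 CPM in ESC, a log2 fold change of 6.30 ± 0.25 in NPC (adjusted p 7.71e-06). Phc1-KO also lay above ESC without overlap, by 0.87 ± 0.23, which missed the threshold (adjusted p 0.0560, passing in 4 of 16 alternatives). Its relative Adamts7 had 5.08 and 5.37 CPM in Phc1-KO, 28.9 and 36.6 CPM in NPC, and 5.74 and 5.29 CPM in ESC (2.57 ± 0.21 in NPC, adjusted p 9.56e-05), with Phc1-KO and ESC overlapping.

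Of the remaining ADAMTS genes, Adamts10, Adamts16, Adamts17 and Adamts19 rose in NPC against ESC and Adamts6 did not pass. Adamts10, linked to fibrillin microfibrils, had 18.1 and 18 CPM in Phc1-KO, 51.7 and 70.3 CPM in NPC, and 16.7 and 15.1 CPM in ESC (1.94 ± 0.19 in NPC, adjusted p 0.000207). Adamts17 had 1.47 and 1.016 CPM in Phc1-KO, 6.38 and 9.74 CPM in NPC, and 1.54 and 2.13 CPM in ESC (2.13 ± 0.35, adjusted p 0.00184). Adamts16 and Adamts19 rested on unequal NPC libraries. Adamts16 had 4.67 and 0.974 CPM in NPC, against 0.0617 and 0.243 CPM in ESC (4.14 ± 1.022, adjusted p 0.0105; 0.0541 without ESC 1), and 0.105 and 0 CPM in Phc1-KO. Adamts19 had 2.72 and 2.42 CPM in Phc1-KO, 39.5 and 6.75 CPM in NPC, and 4.13 and 5.05 CPM in ESC. Its log2 fold change in NPC against ESC was 2.33 ± 0.72 (adjusted p 0.0258), it was 0.56 without NPC 1, and 8 of 16 alternatives kept the call, which the ESC pair as 1 library ended (adjusted p 0.0735). Adamts6 had 17.5 and 20 CPM in Phc1-KO, 37.0 and 12.3 CPM in NPC, and 13.8 and 14.2 CPM in ESC, so the NPC libraries lay on either side of both other groups and no comparison passed. NPC 1 was also the higher library for the progenitor markers Fabp7 (1355 against 458.6 CPM in NPC 2) and Olig2 (254 against 58.6 CPM), and their part in these differences was not tested.

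Of the inhibitors, Timp1 and Timp3 parted in Phc1-KO cells. Timp1, a secreted inhibitor of most soluble MMPs, had 110.3 and 106 CPM in Phc1-KO, 6.77 and 7.08 CPM in NPC, and 43.6 and 43.6 CPM in ESC. The groups did not overlap and the libraries of each group lay close together, with log2 fold changes of 1.31 ± 0.13 in Phc1-KO against ESC (adjusted p 0.00433) and -2.65 ± 0.14 in NPC against ESC (adjusted p 2.00e-05). Timp3, which binds the matrix and also inhibits ADAM and ADAMTS proteases, had 65.0 and 34.3 CPM in Phc1-KO, 149 and 180.4 CPM in NPC, and 158 and 154 CPM in ESC. Phc1-KO was the lowest group, by -1.66 ± 0.28 against ESC (adjusted p 0.0179) and -1.73 ± 0.29 against NPC (adjusted p 0.00161), and NPC and ESC overlapped. The Phc1-KO libraries were far apart for Timp3, and without Phc1-KO 2 its log2 fold change against ESC was -1.26. The ESC pair as 1 library ended the calls against ESC of Timp1 (called in 13 of 16 alternatives) and Timp3 (12 of 16), with adjusted p of 0.0683 and 0.0833. Exons of Timp3 overlap those of Syn3, a synapsin gene on the opposite strand, by 1733 bases.

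Timp2, which also takes part in the activation of Mmp2 by Mmp14, had 270.3 and 130.3 CPM in Phc1-KO, 76.2 and 145 CPM in NPC, and 131 and 130.2 CPM in ESC. The libraries of Phc1-KO and of NPC were far apart, the groups overlapped in every comparison, and none passed by edgeR. Phc1-KO against NPC (0.86 ± 0.39, adjusted p 0.0882) was called higher in 3 of 16 alternatives, DESeq2 among them (adjusted p 0.0314). Timp4, an inhibitor known from heart and brain, had 0.576 and 0.774 CPM in Phc1-KO, 20.3 and 18 CPM in NPC, and 0.370 and 0.243 CPM in ESC. It rose in NPC against ESC by 5.93 ± 0.34 (adjusted p 2.47e-05), while Phc1-KO against ESC did not pass (1.13 ± 0.41, adjusted p 0.121).

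Set directly against NPC, Phc1-KO cells were higher in Mmp1a, Mmp3, Mmp9, Mmp10, Mmp12, Mmp13, Mmp25 and Timp1, and lower in 16 Adamts genes, Mmp2, Mmp14, Mmp15, Mmp16, Mmp23, Mmp28, Timp3 and Timp4. The log2 fold changes were 7.51 ± 0.45 for Mmp13, 6.30 ± 0.34 for Mmp10, 4.32 ± 0.52 for Mmp25, 3.97 ± 0.15 for Timp1 and 2.69 ± 0.36 for Mmp9 (adjusted p of 5.86e-06 for Timp1 to 0.000616 for Mmp9). On the lower side they were -5.44 ± 0.24 for Adamts12, -5.39 ± 0.59 for Mmp15, -4.81 ± 0.30 for Timp4, -4.44 ± 0.27 for Mmp2 and -3.61 ± 0.29 for Adamts1 (adjusted p of 9.62e-06 for Adamts12 to 0.000275 for Mmp15). For Timp1, Mmp10 and Mmp13 the 3 groups stood in the order Phc1-KO, ESC, NPC without overlap, while for Mmp2, Mmp16 and Adamts1 the NPC libraries stood above Phc1-KO and ESC libraries that lay close together. Mmp19 (0.33, adjusted p 0.164), Mmp17 (-0.06), Mmp11 (-0.25), Adamts6 (-0.39) and Timp2 (0.86, adjusted p 0.0882) were among the 8 that did not pass between Phc1-KO and NPC.

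Levels between genes were set side by side as CPM per kb of exon. In Phc1-KO the order of mean levels was led by Timp1 at 122 CPM per kb (119.6 and 124) and Mmp3 at 109 (101 and 118), whose libraries did not overlap, followed by Timp2 at 51.4, Mmp14 at 20.6 and Mmp10 at 15.3. In NPC it was led by Mmp2 at 284 CPM per kb, and then Adamts1 at 74.8, Adamts12 at 56.2, Mmp14 at 54.3 and Mmp15 at 40.9, and the libraries of those 4 genes overlapped (53.0 to 96.7, 53.6 to 58.9, 49.4 to 59.3 and 19.3 to 62.5 CPM per kb in that order of genes), so their order does not hold beyond the spread. In ESC the first 3 were inhibitors, Timp1 at 49.1, Timp2 at 33.6 and Timp3 at 19.2 CPM per kb, ahead of Mmp14 at 15.8 and Mmp2 at 13.8.

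Summed over each family, the Mmp genes gave 188 and 200.1 CPM per kb in Phc1-KO, 391 and 426 in NPC, and 58.0 and 57.5 in ESC. Mmp3 alone was 53.6% and 58.8% of the Phc1-KO sum, Mmp2 was 62.3% and 75.9% of the NPC sum, and Mmp14 was 27.4% and 27.3% of the ESC sum. The Adamts sums were 27.4 and 25.3 CPM per kb in Phc1-KO, 198 and 239 in NPC, and 28.3 and 28.4 in ESC. The Timp sums were 202 and 158 CPM per kb in Phc1-KO, 59.8 and 79.9 in NPC, and 103 and 102 in ESC. The ratio of Mmp to Timp sums was 0.929 and 1.27 in Phc1-KO, 6.53 and 5.33 in NPC, and 0.566 in both ESC libraries, with no overlap between groups; with 2 libraries a group an exact permutation test cannot go below p = 0.333, so no test is given. The ratio compares RNA levels and measures no enzyme activity.

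**Figure D4:**
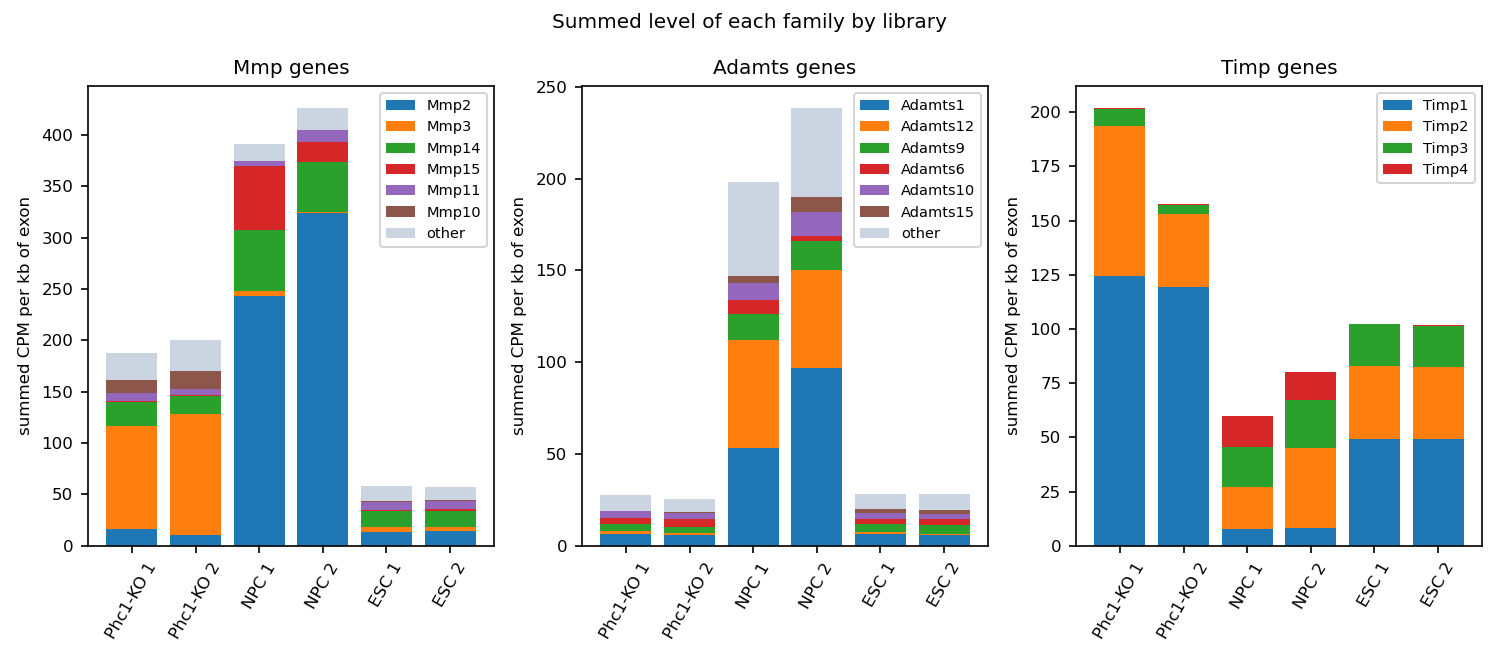
Summed level of the Mmp, Adamts and Timp genes in each library, in CPM per kb of exon, stacked by gene with the leading genes coloured. Mmp3 makes up most of the Mmp bar in Phc1-KO, Mmp2 most of it in NPC, and the Adamts bars are highest in NPC.

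Genes that act with these families were looked at as 4 lists. Of 11 activators and inhibitors of the proteases, 2 rose and 1 fell in Phc1-KO against ESC, where 4.91% of all genes were higher and 5.75% lower. Tfpi2, a Kunitz-type inhibitor of plasmin and of several MMPs, had 15.8 and 17.0 CPM in Phc1-KO, 0.0658 and 0.0649 CPM in NPC, and 0.123 and 0.122 CPM in ESC (6.98 ± 0.34 against ESC, adjusted p 0.00111). Plau, the urokinase that generates plasmin, had 54.9 and 63.0 CPM in Phc1-KO, 107 and 55.5 CPM in NPC, and 8.39 and 8.09 CPM in ESC (2.84 ± 0.31, adjusted p 0.00585). A2m, a broad protease trap, had 2.46 and 3.14 CPM in Phc1-KO, 119 and 430 CPM in NPC, and 27.5 and 28.7 CPM in ESC. It fell in Phc1-KO against ESC (-3.32 ± 0.61, adjusted p 0.0213), a call that limma-voom did not make and the ESC pair as 1 library ended. In NPC against ESC 7 of the 11 rose (63.6%, against 30.4% of all genes) and 3 fell (27.3%, against 30.9%), led by Plat (5.18 ± 0.20), Serpine2 (4.28 ± 0.15) and Plau (3.30 ± 0.32); with the ESC pair as 1 library 6 rose and 2 fell. In Phc1-KO against NPC 3 rose (27.3%, against 32.3%) and 6 fell (54.5%, against 32.7%). The list's median log2 fold change was 0.045 in Phc1-KO against ESC and 1.55 in NPC against ESC, beside 0.00 and -0.01 over all genes.

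Of 16 substrates, the basement membrane collagens Col4a1 (1.13 ± 0.19) and Col4a2 (1.30 ± 0.22) and the matrix glycoprotein Tnc (2.80 ± 0.39) rose in Phc1-KO against ESC, and the cartilage collagen Col2a1 fell (-1.74 ± 0.21). The shares were 18.8% higher and 6.25% lower, against 4.91% and 5.75% of all genes, and the ESC pair as 1 library ended all 4 calls. Tnc had 1783 and 1242 CPM in Phc1-KO, 1906 and 830.3 CPM in NPC, and 219.7 and 215 CPM in ESC. In NPC against ESC 11 substrates rose (68.8%, against 30.4% of all genes) and 5 fell (31.3%, against 30.9%), and 10 rose and 4 fell with the ESC pair as 1 library. The largest changes were a fall of the adhesion molecule Cdh1 (-9.25 ± 0.23), and rises of the brain proteoglycan Bcan (6.71 ± 0.38) and of Col3a1 (6.19 ± 0.27). Of 11 membrane-bound ADAM proteases, Adam8 alone was called in Phc1-KO against ESC (6.60 and 6.43 CPM in Phc1-KO, 20.7 and 18.4 CPM in ESC; -1.58 ± 0.20, adjusted p 0.00865), and the ESC pair as 1 library ended that call. Of the ADAM genes 7 rose (63.6%) and 2 fell (18.2%) in NPC against ESC, led by Adam12 (6.70 ± 0.44), and 6 and 2 did so with the ESC pair as 1 library. Of 6 ADAMTS-like genes, which lack the protease domain, 5 were tested and 3 rose in NPC against ESC (Adamtsl1, Adamtsl3 and Adamtsl5, the last of which was lost with the ESC pair as 1 library). In Phc1-KO against ESC none of these was called by edgeR, DESeq2 or limma-voom, with 1 lower at an unadjusted p under 0.05.

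Markers of 2 further cell types were counted. The 6 endothelial markers summed to 39.7 to 43.3 CPM in Phc1-KO, 73.9 to 89.3 CPM in NPC and 51.3 to 54.1 CPM in ESC. None was called in Phc1-KO against ESC by edgeR or limma-voom, with 1 lower by DESeq2 and 2 lower at an unadjusted p under 0.05, and 2 rose (Emcn and Kdr) and 2 fell (Pecam1 and Tek) in NPC against ESC, where 30.4% and 30.9% of all genes were higher and lower. The 6 parietal endoderm markers summed to 339 to 445 CPM in Phc1-KO, 1238 to 1543 CPM in NPC and 307 to 319 CPM in ESC, with Sox17 at 0 in NPC. Sparc, a collagen-binding matrix protein, rose in Phc1-KO (0.80 ± 0.17, adjusted p 0.0340, lost with the ESC pair as 1 library) and in NPC (3.02 ± 0.19, adjusted p 3.28e-05) and was most of each sum. The part of these cell types in the protease values was not tested.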

How the data were processed

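RNA was depleted of ribosomal RNA with Ribo-Zero Gold and made into TruSeq libraries, read as 50-base single ends, per the labels' protocols. The authors deposited raw counts of reads per Ensembl gene; STAR, HTSeq and the mm9 genome are named per the submitters' processing notes, and which versions, gene models and strand option were used is not given in the sources used here. The 5 closing tallies per table were left out. Reads given to no gene were 0.661 to 1.09 per gene count, with the lowest value in Phc1-KO 2 and 1.08 in Phc1-KO 1. Symbols, positions and exon lengths came from GENCODE M1, which named 37205 of 37620 genes and left 415 unnamed.

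Counts were tested with edgeR 4.0.16 in R 4.3.3 (quasi-likelihood F test, TMM scaling, filterByExpr with a minimum count of 10 and total of 15). All 6 libraries were fitted together, with 3 residual degrees of freedom, and Benjamini-Hochberg adjustment ran over the 17489 genes tested, and the threshold was 0.05. Every adjusted p in the text is from this test unless another is named. CPM are counts over TMM-scaled library size, SE is the size of the log2 fold change over the square root of F, and ± gives the SE. Where a group held 1 to 3 counts of a gene, the ratio is given with an exact 95% interval; intervals and floors cover counting error only, as reads carry no molecular identifiers. The genes, lists, motifs and markers were chosen with earlier results of these data known. Members with a mean of at least 1 CPM in a group, or called, are named with values; of listed genes, the 3 largest changes per list and comparison, or all where 5 or fewer passed. Results for some genes of the lists are not reported here, and the lists were counted without them. Fabp7, Olig2, Postn, the flanking genes and Mmp1b, Mmp8, Mmp20, Mmp27, Adamts13 and Adamts18 were named after their values were seen.

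The 16 alternative settings were other tests (DESeq2 1.42.0, limma-voom with limma 3.58.1), other scalings (size factors of DESeq2, upper quartile, total counts), other filters (none, or 1 CPM), a fit without the third group, the replicate number as a block, leaving out each of the 6 libraries, and the ESC pair summed to 1 library. Shared sequence was counted as 50-base stretches of a gene's transcripts found in another gene's. Figures used matplotlib 3.10.9.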

Additional observations from a re-analysis of the deposited data

How the results depend on the processing

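In Phc1-KO against ESC the counts of calls moved with which ESC, Phc1-KO and NPC libraries were in the fit. Against 6 genes higher and 2 lower, and 1864 genes called in all, the ESC pair as 1 library gave 3 higher (Mmp3, Mmp10 and Mmp13) and 0 lower, with 8 higher and 4 lower at an unadjusted p under 0.05, and 145 genes in all. A fit of only the 2 groups compared gave 6 lower and 3899 in all. With each library left out in turn, higher calls ranged over 2 to 8, lower calls over 0 to 6 and all calls over 92 to 3715; all calls were lowest without ESC 2 (92), ESC 1 (112) and Phc1-KO 2 (138), and highest without NPC 1 (3715) and NPC 2 (3701). The cause was not tested. The counts of members in the other 2 comparisons stayed within 1.5 times.

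Of 128 alternative values for the 8 genes called in Phc1-KO against ESC, 104 kept the call and 24 lost it, with no loss in Mmp10 or Mmp13. In NPC against ESC 441 of 463 were kept, with losses in Adamts15, Adamts16, Adamts19, Mmp10 and Mmp19, and in Phc1-KO against NPC 506 of 511, with losses in Adamts16, Adamts19 and Mmp23. No called gene changed sign. Uncalled genes did. In NPC against ESC Mmp11 was -0.055 with limma-voom and -0.021 with upper-quartile scaling, and with libraries left out the values ranged over -0.669 to 0.561 in Mmp11, -0.185 to 1.409 in Adamts6, -2.404 to 5.024 in Mmp1b and -1.922 to 0.119 in Mmp3. In Phc1-KO against NPC Mmp17 was 0.063 with limma-voom, 0.002 with upper-quartile scaling and 0.015 with the replicate block, and with libraries left out it ranged over -0.545 to 0.679, Adamts6 over -0.976 to 0.617 and Mmp11 over -0.734 to 0.496.

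Replicate numbers shared only a number (correlations of replicate differences of 0.02, 0.02 and -0.02). The replicate block gave 7 higher and 2 lower in Phc1-KO against ESC, 23 and 7 in NPC against ESC, and 8 and 24 in Phc1-KO against NPC, with 1427, 10424 and 11061 calls over all genes, against 1864, 10721 and 11359. Upper-quartile scaling moved the median of all genes in NPC against ESC to -0.11, against -0.01. With 2 libraries per group, genes under about 1 CPM rest on few counts.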
